A study of Mus musculus with 6 samples.

Results

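The genes described here encode enzymes that buffer and recycle ATP in muscle: the muscle, brain and mitochondrial creatine kinases (Ckm, Ckb and Ckmt2), adenylate kinase 1 (Ak1), the muscle adenylosuccinate synthase (Adssl1), and the cytosolic and mitochondrial glycerol-3-phosphate dehydrogenases (Gpd1 and Gpd2). They were taken by gene symbol from a list of 8, and every probe set carrying one of those symbols alone was used. In all, 7 of the 8 symbols had a probe set, among 12393 genes with a single symbol on the array. The remaining symbol, Ampd1 (muscle AMP deaminase), was carried by no probe set alone and is not analysed here. The 7 genes were read by 11 probe sets (sets of short oligonucleotides that are read together), and 10 of these passed the filter on low signal.

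Transcripts were measured in superficial masseter, which closes the jaw, and in tibialis anterior, which lifts the foot. The mice were normal adult C57Bl/6 females, all 6 months old, and the study set a chewing muscle against a limb muscle. Each muscle had 3 samples, 1 array each, numbered 1 to 3. Separate mice are not stated in the labels, so part of the spread between samples may be technical. The main test took the sample number as a block. Its p-values therefore rest on the spread of the differences between same-numbered samples. The method, limma, pulls that spread toward the spread of other probe sets of like signal. The labels do not say whether same-numbered samples came from 1 mouse.

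Working muscle spends ATP faster than mitochondria supply it at the start of a contraction. Creatine kinase refills ATP from phosphocreatine, and adenylate kinase makes ATP and AMP from a pair of ADP molecules. AMP is then removed by AMP deaminase to IMP, and adenylosuccinate synthase and lyase rebuild AMP from IMP in the purine nucleotide cycle. The glycerol phosphate shuttle, run by Gpd1 in the cytosol and Gpd2 on the inner mitochondrial membrane, passes reducing equivalents from glycolysis to the respiratory chain. Cytosolic creatine kinase, adenylate kinase, AMP deaminase and Gpd1 are abundant in fast, glycolytic fibres.

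None of the 7 genes passed the test between the muscles. Of the 10 kept probe sets, 0 were called at an adjusted p of 0.05, against 1.18% of all 13576 probe sets tested (0.56% higher and 0.619% lower in the masseter). Also, 0 of the 10 had an unadjusted p under 0.05, against 13.1% of all. On every one of the 10 the arrays of the muscles overlapped, whereas 17.8% of all probe sets had no overlap. By sign alone, 2 genes were higher in the masseter and 5 lower. The median difference of the 7 genes was -0.13 (log2 masseter minus tibialis anterior), and over all genes by name it was 0.02. The median size of the difference, whatever its sign, was 0.13 for the 7 genes and 0.22 for all genes by name. Each gene is represented by its brightest probe set, mean signals are geometric means, errors are limma's standard error (SE), and n = 3 per muscle throughout.

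The 95% intervals show how large a difference these arrays still allow. For all 7 genes the interval lay within a 2-fold difference in either direction, as it did for 71.2% of genes by name. The widest interval, that of Gpd1, reached a masseter level 1.85-fold lower. The intervals are given gene by gene, with no adjustment for the number of genes. Their width draws in part on the spread of other probe sets of like signal. Intervals from a gene's own differences alone were not computed and could be wider, past 2-fold for some genes. Differences within these bounds could not be resolved with 3 arrays per muscle.

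**Figure D1:**
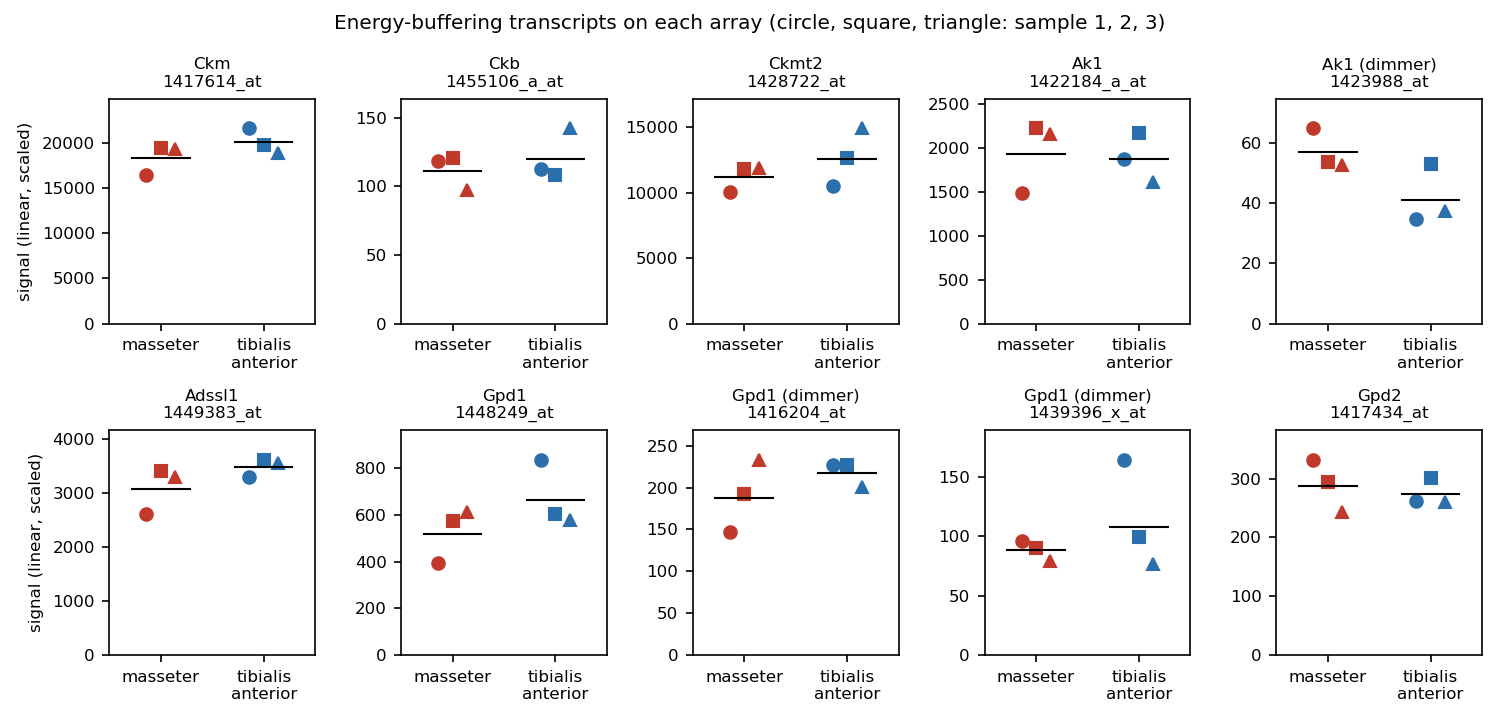
Linear signal of the 10 kept probe sets of the 7 genes, in masseter (red) and tibialis anterior (blue), with circle, square and triangle for samples 1, 2 and 3 and a bar at the mean of log2 signals. In every panel the muscles overlap, and masseter 1 is the lowest masseter array for Ckm, Ckmt2, Adssl1 and the brighter probe sets of Ak1 and Gpd1.

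The cytosolic creatine kinases Ckm and Ckb supply the alternative subunits of 1 enzyme, the muscle and the brain form. The bases before their transcription starts are shown to set the muscle form's promoter beside the brain form's, 250 bases each, from RefSeq promoters of build GRCm38.p6. Capitals mark matches to the E-box letters CANNTG, the site type bound by myogenic factors, and to TATAAA, each searched on both strands.
Ckm, chr7:19410844-19411093, plus strand: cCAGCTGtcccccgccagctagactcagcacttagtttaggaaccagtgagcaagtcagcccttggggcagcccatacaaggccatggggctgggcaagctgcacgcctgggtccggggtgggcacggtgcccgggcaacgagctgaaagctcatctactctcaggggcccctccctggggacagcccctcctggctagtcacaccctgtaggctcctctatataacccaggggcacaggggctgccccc
Ckb, chr12:111672339-111672588, minus strand: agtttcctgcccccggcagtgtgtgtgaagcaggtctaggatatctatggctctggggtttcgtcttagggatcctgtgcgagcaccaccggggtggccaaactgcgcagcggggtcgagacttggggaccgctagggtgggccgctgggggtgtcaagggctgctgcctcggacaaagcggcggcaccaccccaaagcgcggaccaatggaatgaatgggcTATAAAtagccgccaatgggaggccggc
The Ckm window held 1 match to CANNTG and 0 to TATAAA. The Ckb window held 0 matches to CANNTG and 1 to TATAAA, which began 28 bases before the start. Among 32851 promoter windows of the same length, 66.2% held CANNTG and 12.4% held TATAAA. These are matches of exact letters only, and no binding was measured. Near variants, such as tatataa in the Ckm window, were not counted. Of the 8 listed symbols, 6 had an entry in the promoter table.

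Ckm, the creatine kinase bound in part to the M-line next to myosin, was among the brightest transcripts of both muscles. Masseter samples 1 to 3 had signals of 16379.9, 19385.3 and 19292.8. Tibialis anterior samples 1 to 3, given in that order here and below, had 21608.8, 19771.6 and 18910.2. Masseter 1 was the lowest of the 6 and tibialis anterior 1 the highest, and the other arrays overlapped. The difference was -0.13 ± 0.12 (adjusted p = 0.714), with an interval from -0.41 to 0.14. Ckm ranked between 2 and 6 from the top on each array, at 85.1% to 98.8% of the array's highest signal. Differences so near the top of the scale can be understated. With quantile normalization of the arrays the difference was -0.02.

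Ckmt2, the sarcomeric mitochondrial creatine kinase that makes phosphocreatine at the site of ATP export, had signals of 10072.6, 11795.5 and 11915.9 in the masseter. In the tibialis anterior they were 10480.9, 12657.2 and 14926.1. It was lower in the masseter within each of the 3 numbered pairs, but the spread within the tibialis anterior was larger than the difference. The difference was -0.16 ± 0.11 (adjusted p = 0.612), with an interval from -0.42 to 0.10. It was -0.0017 with quantile normalization, and unpaired it was -0.29 without tibialis anterior 1 and -0.04 without tibialis anterior 3.

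Ckb, the brain form, which adult muscle expresses at a low level beside nerve, smooth muscle and other cells, was read far down the signal scale. Its masseter signals were 118.3, 120.4 and 97.3, and its tibialis anterior signals 112.4, 108.3 and 142.5. Sample 3 held both the lowest masseter and the highest tibialis anterior value, and pairs 1 and 2 ran the other way. The difference was -0.11 ± 0.22 (adjusted p = 0.89), with an interval from -0.61 to 0.39. Because the tissue was bulk muscle, fewer cells of a type and less RNA per cell cannot be told apart.

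Ak1, the cytosolic adenylate kinase of muscle, was read by 2 probe sets. The brighter one gave 1484.4, 2223.1 and 2158.3 on the masseter arrays, against 1868.3, 2170.4 and 1608.4 for tibialis anterior. Each muscle held a low and a high array, and the difference was 0.04 ± 0.16 (adjusted p = 0.945), with an interval from -0.33 to 0.42. The dimmer one had signals of 64.9, 53.7 and 52.8 against 34.7, 52.9 and 37.5. It was higher in the masseter in all 3 numbered pairs, yet masseter 3 lay just under tibialis anterior 2. Its difference was 0.47 ± 0.32 (adjusted p = 0.596), and its interval, from -0.25 to 1.20, was the only one of the 10 to pass 2-fold. Masseter 1 was the lowest masseter array on the brighter probe set and the highest on the dimmer one.

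Adssl1, the synthase that commits IMP to AMP in the purine nucleotide cycle, had signals of 2613.6, 3406.6 and 3308.7 in the masseter. The tibialis anterior values were 3303.3, 3625.1 and 3569.9. All 3 numbered pairs were lower in the masseter, while masseter 2 and 3 lay above tibialis anterior 1. The difference was -0.18 ± 0.12 (adjusted p = 0.607), with an interval from -0.46 to 0.10. Without masseter 1, with the arrays taken as unpaired, it was -0.06, and with quantile normalization of all 6 arrays it was -0.11.

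Gpd1, the cytosolic dehydrogenase that also makes glycerol phosphate for triglyceride, gave the largest difference of the 7 genes. Its brightest probe set gave 393.6, 573.8 and 610.5 on the masseter arrays, against 835.5, 603.1 and 577 for tibialis anterior. The difference was -0.36 ± 0.23 (adjusted p = 0.575), with an interval from -0.88 to 0.17. Pair 1 held the lowest and the highest of the 6 arrays, with a difference of -1.09 against -0.07 in pair 2 and 0.08 in pair 3. Without replicate 1 the difference was 0.0048.

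The other kept probe sets of Gpd1 gave differences of -0.21 ± 0.21 and -0.29 ± 0.23 (adjusted p = 0.737 and 0.67). The last probe set lay under the filter on all arrays, at signals of 1.1 to 16.4, and was not tested. Gpd1 is abundant in adipocytes, and 8 of the 10 listed adipocyte markers had a probe set. Their summed signal ran from 5286 to 7755.1 on masseter arrays and from 3702.1 to 5284.2 on tibialis anterior arrays. Most of it was Fabp4, at 3791 to 5106.5 in the masseter and 2772 to 4826.2 in the tibialis anterior. Fabp4 did not pass (0.27 ± 0.16, adjusted p = 0.537), so the sum mainly follows that gene. No adipocyte marker was at 0, and Lep was the dimmest, down to 1.6. The part of these markers in the Gpd1 values was not tested.

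Gpd2, the mitochondrial partner of Gpd1, gave 332.2, 294.9 and 243.4 on the masseter arrays, against 262.1, 301.6 and 259.7 for tibialis anterior. The masseter held both the highest and the lowest array. The difference was 0.07 ± 0.17 (adjusted p = 0.909), with an interval from -0.32 to 0.46. Without masseter 1, again unpaired, it was -0.03.

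**Figure D2:**
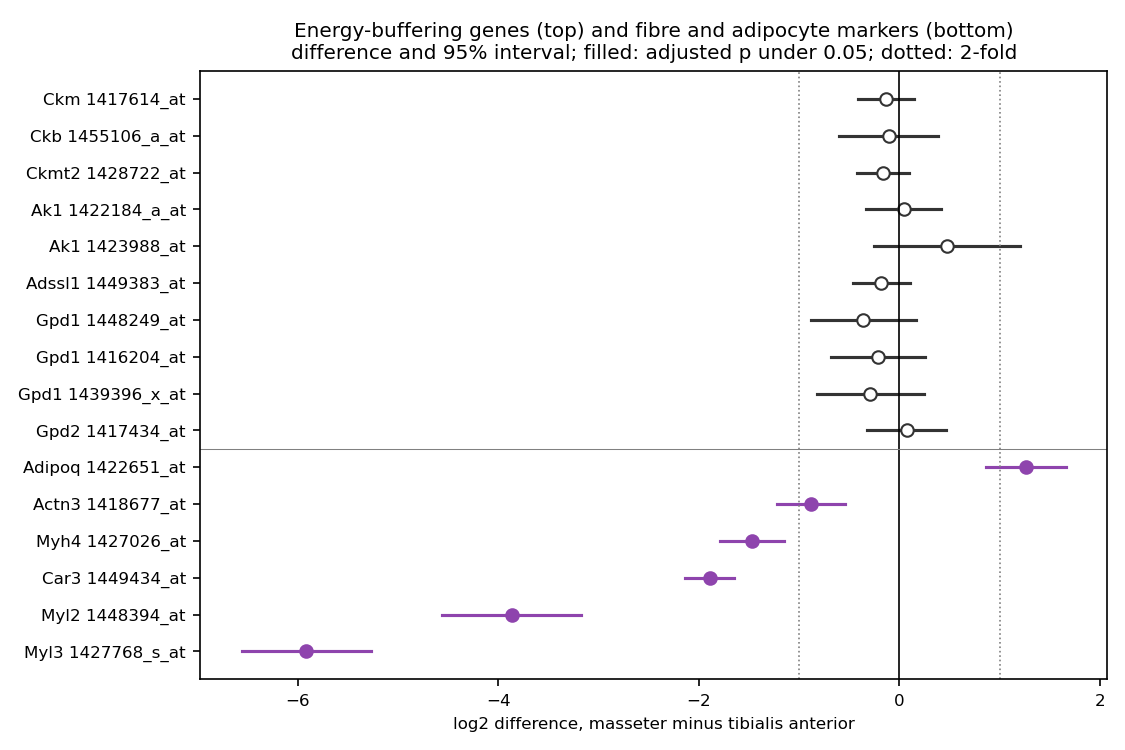
Log2 difference, masseter minus tibialis anterior, with its 95% interval for the 10 kept probe sets (top, grey) and for 6 fibre and adipocyte markers (bottom, purple), where a filled point has an adjusted p under 0.05 and dotted lines mark 2-fold. The energy-buffering genes lie between -0.36 and 0.47 with open points, while Myl3 reaches -5.91.

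Pairs of members from 1 reaction system were set against each other within each array, which asks whether the pair differed unequally between muscles. The log2 distance of Ckb from Ckm averaged -7.36 ± 0.26 over masseter arrays and -7.38 ± 0.29 over tibialis anterior arrays (SD, n = 3, exact permutation p = 1). The distance of Ckmt2 from Ckm was -0.70 ± 0.01 and -0.68 ± 0.35 (exact permutation p = 0.7). The masseter arrays held this distance between -0.72 and -0.70, while tibialis anterior arrays ran from -1.04 to -0.34. The distance of Gpd2 from Gpd1 was -0.84 ± 0.55 and -1.27 ± 0.35 (exact permutation p = 0.4). After adjustment over these 3 two-sided tests each p was 1. The smallest p that 3 arrays against 3 allow is 0.1. The distances depend on the probes, so only their change between muscles can be read, and Ckm lies near the top of the scale, which can compress its distances.

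All 11 fast-fibre markers with a probe set had signals of at least 5649.2 on every array. Some fibre genes did differ. Myh4, the heavy chain of the fastest fibres, had a difference of -1.47 ± 0.14 (adjusted p = 0.00265). Of the 11 measured fast-fibre markers 0 were higher in the masseter, 2 were lower (Myh4 and Actn3) and 9 did not pass, among them Myh1 (0.07), Myh2 (0.21), Pvalb (-0.26) and the brightest, Mylpf and Atp2a1. The Actn3 call ended in 10 of 17 alternatives. Without replicate 1, with the block kept, it held (adjusted p = 0.0491), and without masseter 1 and without the block it did not (adjusted p = 0.0759). Dropping limma's intensity trend lost Myh4 (adjusted p = 0.155), Myl2 (adjusted p = 0.062) and Car3 (adjusted p = 0.0644), and a paired SAM-type statistic lost Myh4 (adjusted p = 0.0603). Of the 10 slow-fibre markers 0 were higher, 3 were lower (Myl3, Myl2 and Car3) and 7 did not pass, among them Myh7 (adjusted p = 0.0671) and the bright Myoz2. Myh7 passed in 4 of 16 alternatives, among them the fit without the replicate block (adjusted p = 0.0467). Masseter signals of Myh7 were 14.5 to 28.8 and those of Myl2 19.2 to 31.5, averages under the filter level, so both were kept through the tibialis anterior, and the size of their differences is imprecise. The median differences of the fast-fibre and slow-fibre lists were -0.15 and -1.08, beside 0.02 for all genes by name. Set against Myh4 within each array, a comparison chosen after the values were seen, all 7 genes were higher in the masseter with no overlap between the muscles. The size ran from 1.11 for Gpd1 to 1.54 for Gpd2 (exact permutation p = 0.1 for each, the smallest possible, and 0.1 after adjustment over the 7). No overlap was also found for 93.9% of genes by name, so the members' share is near that background.

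The other fixed genes of these chains were 68 in 6 lists, of which 48 were measured. Of those 48, 0 passed the test in either direction, against 1.37% of genes by name (0.709% higher and 0.661% lower). At an unadjusted p under 0.05 there were 11, or 22.9%, against 13.9% of genes by name. The muscles did not overlap for 12 of them, or 25%, against 19% of genes by name. All 48 differences were smaller than 2-fold, as were those of all but 287 of 8316 genes by name.

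Among genes of creatine supply, 2 of 4 were measured and 0 passed in either direction. Slc6a8, the transporter that brings creatine into the fibre, had mean signals of 538 in the masseter against 525 in tibialis anterior (0.03 ± 0.16, adjusted p = 0.954). Gamt, which completes creatine synthesis, had 136 and 77.7 (0.81 ± 0.21, adjusted p = 0.142). Its arrays did not overlap, with 108.9, 145.4 and 159.4 for the masseter against 79.7, 69.9 and 84.3 for tibialis anterior.

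Of the other adenylate and nucleotide kinases, 6 were measured and 0 passed, with a median of -0.06. Ak4, an adenylate kinase of the mitochondrial matrix, came nearest. The masseter arrays gave 131.7, 143.5 and 140 and the tibialis anterior arrays 79.1, 81.2 and 70.1, with no overlap. The difference was 0.85 ± 0.20 (adjusted p = 0.1). Ak3, the matrix enzyme that uses GTP, had mean signals of 517 and 399 (0.37 ± 0.15, adjusted p = 0.338).

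Of the genes of the purine nucleotide cycle and AMP disposal, 15 were measured and 0 passed, with a median of -0.01. Ampd3, the AMP deaminase form first known from red cells, gave 86.8, 110.4 and 115 on the masseter arrays, against 187.3, 160.2 and 160.3 for tibialis anterior. All masseter arrays were lower, and the difference was -0.71 ± 0.21 (adjusted p = 0.185). Ampd2, the liver form, had mean signals of 41.4 and 52.7 (adjusted p = 0.743). Adsl, the lyase that follows Adssl1, had 359 and 447 (-0.32 ± 0.17, adjusted p = 0.476). Adss, the synthase of other tissues, had 166 and 141 (0.23 ± 0.22, adjusted p = 0.73).

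Of 10 measured genes of glycerol phosphate metabolism and the malate-aspartate shuttle, the other route for reducing equivalents, 0 passed and the median was -0.08. Their differences ran from -0.59 to 0.50, and 3 had an unadjusted p under 0.05, against 13.9% of genes by name. Mdh1, the cytosolic malate dehydrogenase, had mean signals of 9666 and 8916 (adjusted p = 0.886), and Got1, the cytosolic aspartate aminotransferase, had 3915 and 4468 (adjusted p = 0.598). Of 8 genes of ATP and ADP exchange at the mitochondrion, 0 passed and the median was -0.08. These differences ran from -0.31 to 0.34, and 1 gene had an unadjusted p under 0.05. Slc25a4, the ADP/ATP carrier of heart and skeletal muscle, had 15903 and 16950 (-0.09 ± 0.12, adjusted p = 0.813). The last list held subunits of the AMP-activated protein kinase, which senses AMP, together with kinases upstream of it and their partners. Of its 7 measured genes 0 passed and the median was 0.04. No catalytic subunit of the kinase was among those measured.

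**Figure D3:**
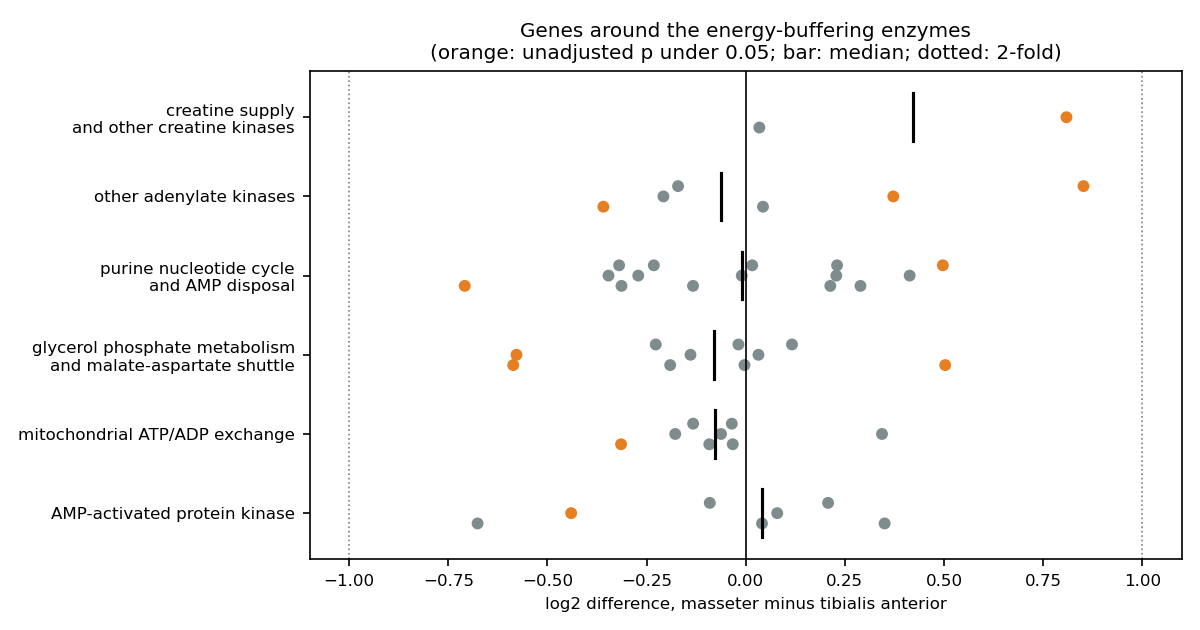
Log2 difference, masseter minus tibialis anterior, for the 48 measured genes in 6 lists, with a bar at each list's median and dotted lines at 2-fold. Points in orange have an unadjusted p under 0.05 (11 genes), and none passed after adjustment.

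Low values on 1 array were shared by several of these genes. Masseter 1 was the lowest masseter array for 5 of the 7 genes (Ckm, Ckmt2, Ak1, Adssl1 and Gpd1), while 37.2% of all kept probe sets, and 45.1% of those with a mean signal of at least 1000, were lowest there. Masseter 1 also held the most salivary signal. The 10 salivary markers with a probe set summed to 62888 there, 8143.1 and 3336 in masseter 2 and 3, and 2515.9 to 5983.5 in the tibialis anterior, and none was at 0. Dcpp1 was the dimmest, down to 1.8. The fast-fibre markers averaged 13.48 (log2) in masseter 1 against 13.69 and 13.77 in masseter 2 and 3. Their part in the member values was not tested.

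Without masseter 1, unpaired, Ckm differed by -0.05, Ckmt2 by -0.08, Ak1 by 0.23 and Gpd1 by -0.16, and again 0 of the 7 genes passed. In the tibialis anterior, sample 1 was highest for Ckm and Gpd1 and lowest for Ckmt2 and Adssl1. Of all kept probe sets, 40% were highest and 30.8% lowest on that array. Of those with a mean signal of at least 1000, 51.8% were lowest there. Tibialis anterior 3 was lowest for 4 of the 7 genes, against 36.5% of all kept probe sets and 24.7% of those bright ones. The ratio of 3' to 5' signal of the Gapdh control, a measure of RNA and labelling quality, was 2.66 ± 0.23 for masseter arrays and 1.94 ± 0.11 for tibialis anterior arrays (SD, n = 3, exact permutation p = 0.1). For the Actb control it was 2.96 ± 0.34 and 2.70 ± 0.11, with overlap (exact permutation p = 0.3). Their part in the member values was not tested.

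**Figure D4:**
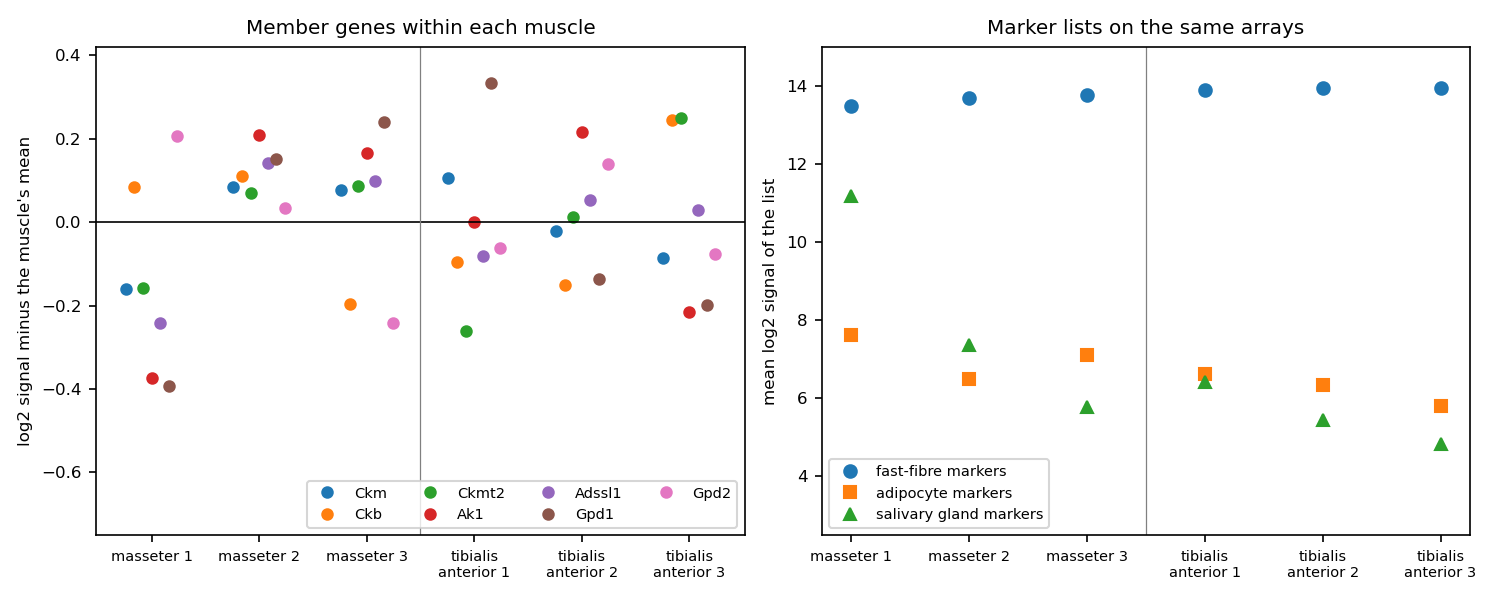
Left, log2 signal of the 7 genes on each array after subtracting the muscle's own mean. Right, mean log2 signal of fast-fibre, adipocyte and salivary gland markers on the same arrays. Masseter 1 has the low values of Ckm, Ckmt2, Ak1, Adssl1 and Gpd1 on the left and the highest salivary level, 11.18, on the right.

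Markers of other cells were compared on the same arrays. Of 7 measured salivary genes 2 were higher in the masseter (Pip and Smr3a), and the brightest were Smr2 and Amy1. By sign alone 6 were higher and 1, Smr2, was lower (-0.64 ± 0.25, adjusted p = 0.327). Pip signals ran from 24.2 to 8070.6 on masseter arrays and from 3.6 to 72.4 on tibialis anterior arrays, so it was kept through the masseter and the muscles overlapped. With log2 of signal plus 16 neither Pip nor Smr3a passed (adjusted p = 0.077 and 0.0704). Of 6 adipocyte genes 2 were higher (Adipoq, 1.26, and Scd1, 1.19), and the brightest were Fabp4 and Scd1. All 4 of these calls ended without the replicate block. Without replicate 1, with the block kept, Pip, Smr3a and Adipoq passed and Scd1 did not (adjusted p = 0.0504). For nerve and Schwann cells 0 of 5 measured genes passed (brightest Mbp and Pmp22), for smooth muscle and pericytes 0 of 8 (Rgs5 and Acta2), for endothelium 0 of 8 (Cav1 and Vwf), and for erythroid and immune cells 0 of 6 (Cd74 and Lyz2). Of the 5 nerve and Schwann cell genes 4 were higher in the masseter by sign and 1 lower, with a median of 0.61. Mbp (0.80, adjusted p = 0.0886) and Pmp22 (0.61, adjusted p = 0.146) had no overlap, as had 19% of genes by name. Their part in the Ckb values was not tested.

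Among 8309 other genes, those whose profile over the 6 arrays lay closest to that of Gpd1, the member with the smallest adjusted p, were Dlk1, Kif5b, Mios, Pkp2 and Zranb1. Closeness was the root mean square difference of log2 signals, each gene centred on its own mean, and ran from 0.053 for Dlk1 to 0.094 for Zranb1. All 5 shared the low masseter 1 and the high tibialis anterior 1, and Dlk1 and Pkp2 had mean signals under 50. The profiles share the same arrays and labelling, so the likeness is a description of these 6 arrays.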

How the data were processed

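Per the labels, RNA was read on Affymetrix Mouse 430 2A arrays, and the authors deposited an intensity on a linear scale for each probe set. MAS5 and GCOS appear in the submitters' processing notes, with versions not given in the sources used here. The 2% trimmed mean was 150.08 on all 6 arrays, so no scaling was added. Medians ran from 44.1 to 50.7, and detection calls were not used here.

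Of 22690 probe sets, 64 controls were left out of tests. Symbols came from the platform annotation, and only probe sets with 1 symbol were named. Signals under 1 were set to 1 and put on the log2 scale. Probe sets at or above the 40th percentile of average log2 signal were kept (4.84, a signal of 28.6), 13576 in all, and a gene is represented by its brightest. The test was two-sided, by limma 3.58.1 under R 4.3.3 (lmFit, then eBayes with trend), with the sample number as a fixed block because the study describes paired comparisons, and Benjamini-Hochberg adjustment over all kept probe sets at 0.05. The procedure was tested on simulated data.

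The members and the lists were chosen with earlier results of these data known. Named were all members, 17 set pathway genes where measured, list genes past the threshold, the brightest 2 markers of each list, 7 set markers (Plin1 was carried by no probe set alone), and the 5 genes closest to the top member. Of the set pathway genes, Gpd1l, Prkaa2 and Prkag3 were among those not analysed here for want of a probe set with that symbol alone.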

Additional observations from a re-analysis of the deposited data

How the results depend on the processing

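In all of the 18 alternatives, 0 of the 7 genes and 0 genes of each of the 6 pathway lists passed. The smallest adjusted p of any member probe set was 0.382. Over all probe sets the count, 160 as reported, was 13 with eBayes without trend, 65 with a paired SAM-type statistic (the study names SAM) and 73 with an unpaired one. Without the replicate block 138 passed, and then leaving out masseter 1, 2 or 3 gave 75, 45 or 73 and tibialis anterior 1, 2 or 3 gave 63, 65 or 58. With the block, leaving out a numbered pair gave 119 to 173. Signs of member differences turned only when arrays were left out. The ranges there were -0.21 to 0.00022 for Ckm, -0.24 to 0.11 for Ckb (0.015 without tibialis anterior 3), -0.15 to 0.23 for Ak1 (-0.062 and -0.041 without masseter 2 or 3, -0.066 without tibialis anterior 3), -0.58 to 0.0048 and -0.54 to 0.014 for 2 probe sets of Gpd1, and -0.063 to 0.19 for Gpd2 (-0.031 without masseter 1, 0.155 without pair 3). Ckmt2 ran from -0.29 to -0.04. Ckb minus Ckm ran from -0.20 to 0.33, Ckmt2 minus Ckm from -0.21 to 0.13 and Gpd2 minus Gpd1 from -0.068 to 0.73. Quantile normalization turned the sign of Ckb minus Ckm (-0.13) and of Ckmt2 minus Ckm (0.02). Fewer arrays enter each such fit. The contrasts planned with Ampd1 were not run. Deviations of same-numbered samples correlated at 0.039, 0.152 and 0.101 across probe sets, so the data leave it unsettled whether the numbers pair the samples. The block changed no member call.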

Other observations

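Some fixed genes of these chains lay under the filter on low signal and were not tested. Ckmt1, the ubiquitous mitochondrial creatine kinase, gave 60.3, 34.1 and 31.1 on the masseter arrays, against 27.4, 15.4 and 18 for tibialis anterior, with no overlap between the muscles. Gatm, which starts creatine synthesis, gave 16.7, 48.9 and 20.7 against 17.6, 27 and 8.6, and the muscles overlapped. Signals this low lie near background, where ratios are imprecise.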
